A study of Rattus norvegicus with 48 samples.

Results

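Liver miRNAs were compared between CHO-fed rats at 6 h after PHx and CHO-fed rats before surgery (0 h). The members were chosen by diet, treatment and time point in the sample labels, which gave 6 of the 48 rats of the series, 3 per time point, and all 143 miRNAs of the deposited table were compared. The animals were male Sprague-Dawley rats kept on a liquid carbohydrate diet, the pair-fed control for rats given the same diet with ethanol (EtOH-fed). PHx removed 70% of the liver, so the 6 h group held liver remnants and the 0 h group intact liver. None of the 6 rats had received the miR-21 inhibitor or the saline injection used elsewhere in the series. Levels were measured in RNA of whole frozen liver with the NanoString nCounter assay, which counts molecules of each miRNA with a coloured barcode and without amplification. In whole liver, fewer cells of a type and less of a miRNA per cell cannot be told apart.

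miRNAs are short RNAs that guide Argonaute proteins to messenger RNAs, mostly by pairing of bases 2 to 8 of the miRNA, the seed, and lower the stability or translation of those messages. miRNAs with the same seed form a family and can share targets. After PHx the remaining hepatocytes leave quiescence within hours, pass through a priming phase with cytokine and immediate early gene signals, and then enter the cell cycle. The 6 h time point falls in the priming phase, before the main wave of DNA synthesis in the rat.

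Mature sequences, from RefSeq with the GRCr8 rat assembly, are given with the seed in capitals for the miRNAs that were called at 6 h, and for relatives of miRNAs that stood apart from each other although they share a seed or a locus. A sequence was found for 118 of the 143 miRNAs (82.5%), 35 by the exact name and 83 through the arm that is usually kept. miR-101a and miR-101b differ by 1 base (A16G, counted from the 5′ end, with the miRNA named first having the first base). miR-19a and miR-19b differ by 1 base (U11C), as do let-7a and let-7f (G12A) and miR-29a and miR-29c (C10U). How well the probes separate such pairs is not given in the sources used here.
miR-101a-3p: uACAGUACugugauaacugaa
miR-101b-3p: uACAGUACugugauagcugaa
miR-3559-5p: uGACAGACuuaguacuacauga
miR-342-3p: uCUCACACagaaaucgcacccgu
miR-19a-3p: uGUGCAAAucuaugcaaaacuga
miR-19b-3p: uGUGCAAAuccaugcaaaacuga
miR-29a-3p: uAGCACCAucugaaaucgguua
miR-29b-3p: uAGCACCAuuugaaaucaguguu
miR-29c-3p: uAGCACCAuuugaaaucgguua
let-7a-5p: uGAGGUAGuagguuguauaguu
let-7f-5p: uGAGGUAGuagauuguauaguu
miR-126a-3p: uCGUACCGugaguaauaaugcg
miR-450a-5p: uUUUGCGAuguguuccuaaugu
miR-351-5p: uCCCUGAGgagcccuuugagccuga
miR-322-5p: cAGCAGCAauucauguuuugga

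Total counts, recovered from the deposited values, were 101461, 58168, and 126821 in the 0 h animals (labelled 1_1, 2_1, and 3_1) and 87009, 87256, and 134618 in the 6 h animals (4_1, 4_2, and 4_3). The first number of a label is called a numbered set here. All 6 h animals were of set 4 and the 0 h animals were of sets 1 to 3, so that set and time cannot be told apart in this comparison. miR-122, the miRNA that defines hepatocytes, took 44.5%, 59.8%, and 48.8% of the counts at 0 h and 57.7% to 60.3% at 6 h. The 0 h animal 2_1 had the lowest total of the 48 rats and stood apart from the other 0 h animals. Its log2 CPM (the log2 of counts scaled to library size) correlated at r = 0.946 with the mean of the other 0 h animals and at r = 0.982 with the mean of the 6 h animals, over 143 miRNAs of the same libraries. It lay nearer to the 6 h mean than to the mean of the other 0 h animals for 104 of 143 miRNAs (72.7%), against 34 for animal 1_1 and 49 for animal 3_1. No pair of the 6 libraries was alike within sampling noise. Whether 2_1 differed through its RNA, its library or the rat was not tested, and results are given with and without it. It was set aside for its miRNA profile, so values without it describe how far 1 library moved a result and are not an independent test.

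At 6 h, miR-101a and miR-3559-5p fell and miR-342-3p rose against 0 h. These 3 of 143 miRNAs (2.10%) had an adjusted p under 0.05 in limma, with 1 spread shared by the 8 untreated groups of both diets and Benjamini-Hochberg adjustment over all 143. At an unadjusted p under 0.05 there were 39 miRNAs, 22 higher and 17 lower. Over all miRNAs the median log2 fold change was 0.04, with 79 above 0 and 64 below. The call on each of the 3 held without animal 2_1 and was lost without 1_1 or without any of the 6 h animals. Without 3_1 only miR-342-3p of the 143 was called. With numbered set as a random block all 3 calls were lost, at limma adjusted p of 0.0862 for miR-101a and 0.0812 for miR-3559-5p and miR-342-3p. Groups of 3 against 3 cannot reach an exact two-sided permutation p below 0.1, so that each call rests on the spread that limma borrows across miRNAs and groups.

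miR-101a, whose known targets include the methyltransferase gene Ezh2, had 8.79, 8.26, and 8.54 log2 CPM at 0 h and 7.50, 7.22, and 7.16 at 6 h. All 6 h animals lay below all 0 h animals, 2_1 included. The log2 fold change was -1.24 (SE 0.29, 95% confidence interval -1.84 to -0.64, limma adjusted p = 0.0199), a 2.36-fold lower level. Without 2_1 it was -1.37 (limma adjusted p = 0.00581). The 6 h counts behind these values were 16, 14, and 18, where counting error is large. The lowest counts of any miRNA in the same libraries were 10, 12, and 18. The part of background counts in the size of the fall was not tested. The miRNA lies at chr5:121081691-121081711 on the minus strand, inside the long noncoding RNA gene LOC120102934.

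miR-3559-5p, which lies within the gene Zdhhc15 at chrX:73660193-73660214, had 10.29, 9.20, and 10.17 log2 CPM at 0 h. The 6 h animals were close together at 8.79, 8.78, and 8.82, below all 0 h animals, of which 2_1 was the nearest. It fell by 1.09 on the log2 scale (SE 0.26, limma adjusted p = 0.0199), or 2.13-fold. Without 2_1 the log2 fold change was -1.43 (limma adjusted p = 0.000604).

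miR-342-3p, an intronic miRNA of the gene Evl that is abundant in lymphoid and myeloid cells, had 7.89, 8.86, and 9.04 log2 CPM at 0 h and 9.55, 9.40, and 9.79 at 6 h. Every 6 h animal was above every 0 h animal, and 1_1 was the lowest by far. The log2 fold change was 0.98 (SE 0.23, 95% confidence interval 0.51 to 1.45, limma adjusted p = 0.0199), or 1.97-fold higher, and 1.11 without 2_1 (limma adjusted p = 0.00581). Without 1_1 it was 0.63 (limma adjusted p = 0.248), and with the EtOH groups left out of the fit the adjusted p was 0.0584. Its locus is chr6:133329715-133329737.

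**Figure D1:**
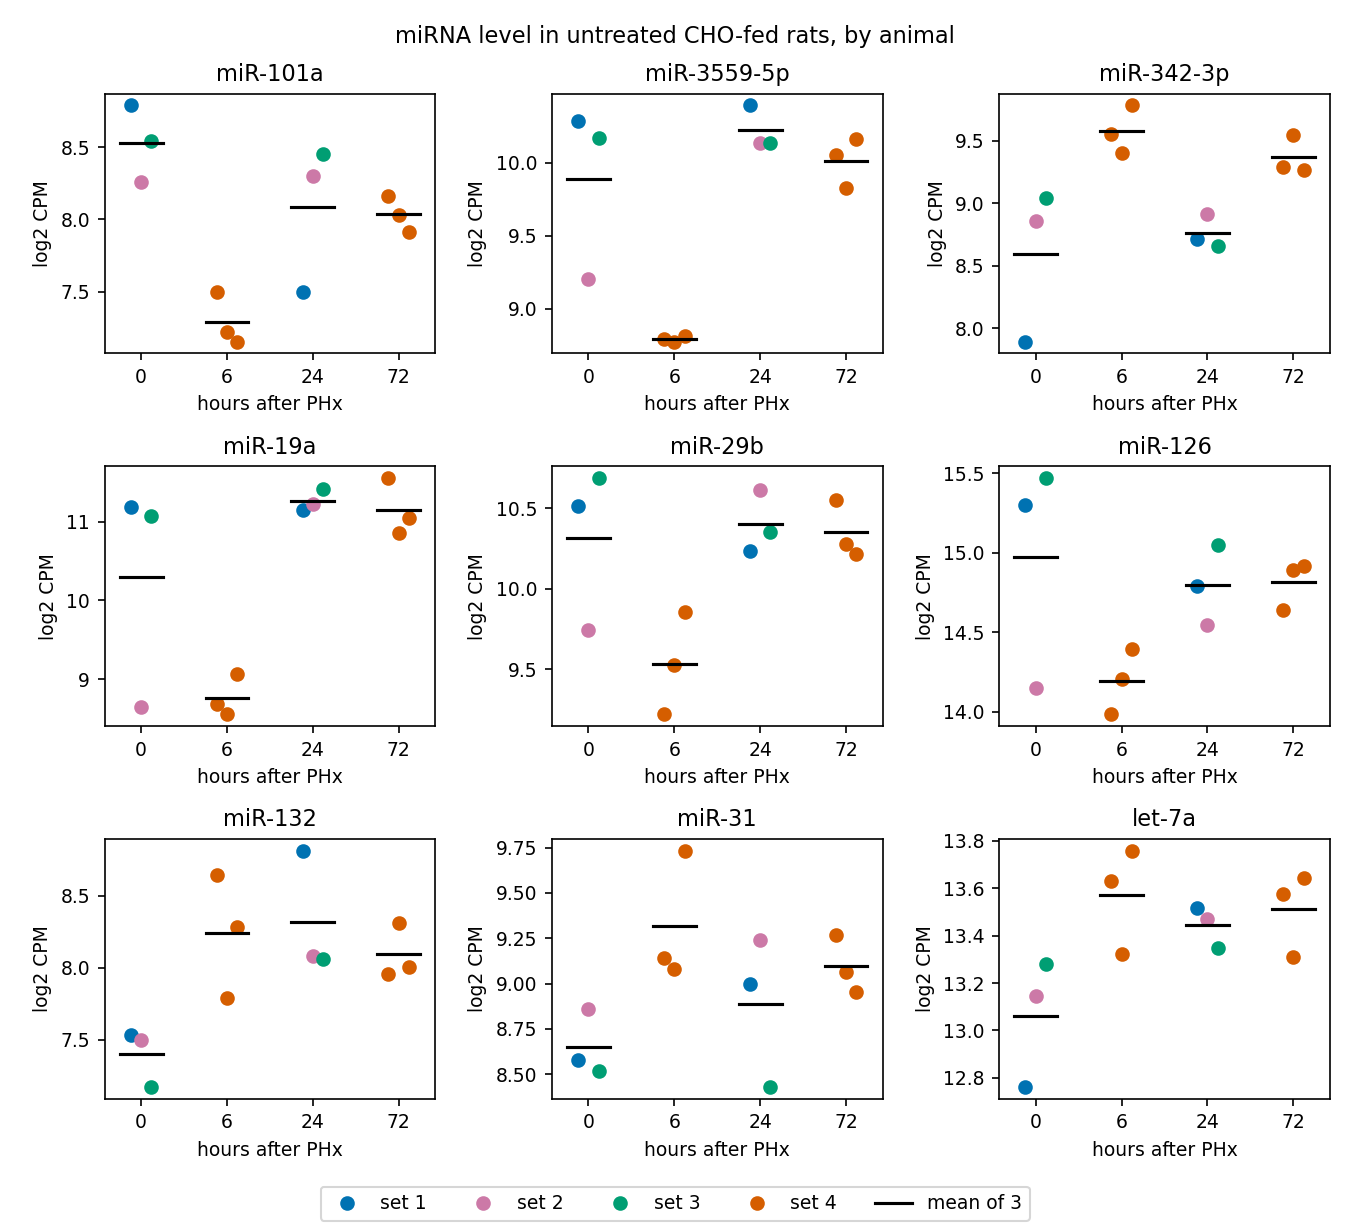
Level (log2 CPM, y axis) of 9 miRNAs in each untreated CHO-fed rat against hours after PHx (x axis), with points coloured by numbered set and black bars for the mean of 3 animals. miR-19a, miR-29b, and miR-126 of the set 2 animal at 0 h sit with the 6 h animals, while for miR-101a the 6 h points, 7.16 to 7.50, lie below every 0 h point.

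Among the miRNAs that missed the threshold, miR-19a of the miR-17/92 cluster, which promotes cell cycle entry, had the most negative log2 fold change. It had 11.18 and 11.07 log2 CPM in 0 h animals 1_1 and 3_1, 8.65 in 2_1, and 8.68, 8.56, and 9.07 at 6 h. Animal 2_1 thus lay within the 6 h range. The log2 fold change was -1.53 (SE 0.49, limma adjusted p = 0.0632), and without 2_1 it was -2.36 (limma adjusted p = 0.000555).

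miR-126, the endothelial miRNA encoded in Egfl7, had 15.30, 14.15, and 15.47 log2 CPM at 0 h and 13.98, 14.21, and 14.39 at 6 h. Here too 2_1 was among the 6 h animals and the others were above them. Its log2 fold change was -0.78 (limma adjusted p = 0.139) and, without 2_1, -1.19 (limma adjusted p = 0.00581). miR-29b, which targets collagen messages, had 10.51, 9.74, and 10.69 log2 CPM at 0 h and 9.22, 9.53, and 9.86 at 6 h. Its log2 fold change was -0.78 (limma adjusted p = 0.0632) with all animals and -1.07 (limma adjusted p = 0.00581) without 2_1.

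For the other miRNAs among the 10 with the smallest p in the lower direction, log2 fold changes were -0.73 for miR-450a, -0.57 for miR-99a, -0.53 for miR-374, -0.48 for miR-27a, and -0.42 for miR-22. The limma adjusted p was 0.154 for miR-22 and 0.0632 for the rest. miR-450a, miR-374, miR-27a, and miR-22 lay lower in every 6 h animal than in every 0 h animal, and miR-99a overlapped. All of them were called without 2_1, with log2 fold changes of -0.55 to -0.93. miR-22, among the most abundant liver miRNAs, had 14.36, 13.86, and 14.14 log2 CPM at 0 h against 13.60, 13.68, and 13.83 at 6 h.

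Of the 10 with the smallest p in the higher direction, miR-132, which is induced by CREB, had 7.53, 7.50, and 7.17 log2 CPM at 0 h and 8.64, 7.79, and 8.29 at 6 h. The groups did not overlap. The log2 fold change was 0.84 (SE 0.27, limma adjusted p = 0.0632), and its lowest count was 11. let-7a, a member of the let-7 family that restrains proliferation, had 12.76, 13.14, and 13.28 log2 CPM at 0 h against 13.63, 13.32, and 13.76 at 6 h. Its log2 fold change was 0.51 (SE 0.16, limma adjusted p = 0.0632), again without overlap.

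miR-31 and miR-207 had log2 fold changes of 0.67 and 0.66 and did not overlap between groups (limma adjusted p = 0.0632 each). miR-351 had 7.47, 9.08, and 8.87 log2 CPM at 0 h and 9.22, 9.21, and 9.09 at 6 h, with 1_1 well below the other 0 h animals, and its log2 fold change was 0.70 (limma adjusted p = 0.148). miR-331 (0.56), miR-409-3p (0.50), miR-99b (0.48), and the hypoxia-induced miR-210 (0.48) had limma adjusted p = 0.154. Without 2_1, 20 miRNAs were called higher, among them miR-132, let-7a, miR-31, miR-351, miR-331, miR-99b, and miR-210 but not miR-207 or miR-409-3p.

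**Figure D2:**
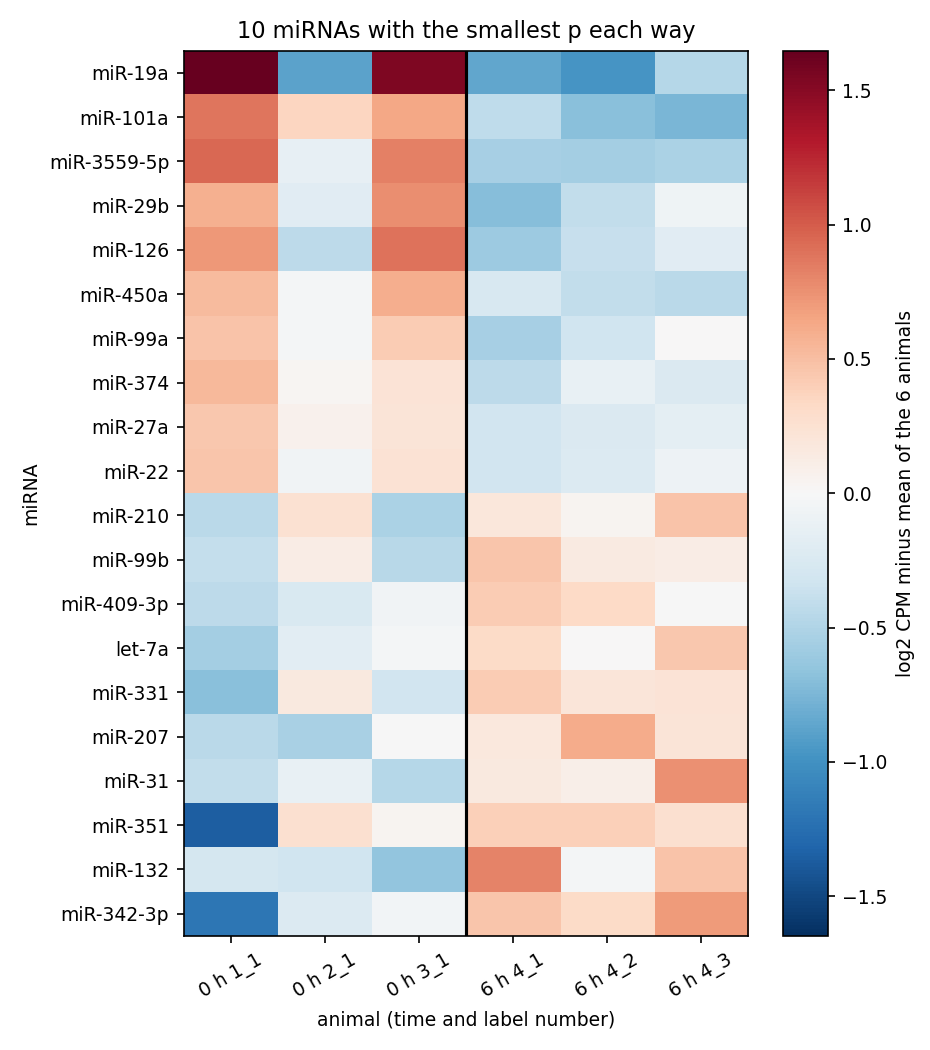
Heat map of the 20 miRNAs with the smallest p, 10 in each direction (rows), in the 3 animals at 0 h and the 3 at 6 h (columns), coloured by log2 CPM minus the mean of the 6 animals. The rows were picked for their difference, and what the map shows is the 0 h column 2_1, whose colours for miR-19a, miR-126, and miR-29b match those of the 6 h columns.

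Without animal 2_1, limma called 46 of 143 miRNAs (32.2%), 20 higher and 26 lower. With all animals, 19 miRNAs (13.3%) had every 6 h animal above every 0 h animal and 10 (6.99%) had every 6 h animal below. The 10 were miR-101a, miR-3559-5p, miR-450a, miR-374, miR-27a, miR-22, miR-27b, miR-199a-3p, miR-338, and miR-455. The other miRNAs called without 2_1 that were not described by the rules above were named after their values were seen. miR-504 (0.85), miR-208b-3p (0.89), miR-423 (0.86), miR-598-5p (0.71), miR-667 (0.69), miR-345-5p (0.67), miR-1 (0.63), miR-1224 (0.58), and miR-675 (0.53) were higher, at 0.23 to 0.62 with all animals. miR-499 (-0.91), miR-203 (-0.88), miR-340-5p (-0.80), miR-872 (-0.69), miR-350 (-0.54), and the joint entry of miR-20a and miR-20b-5p (-0.52) were lower. With all animals these 6 were at -0.24 to -0.64, among them miR-340-5p at -0.33, miR-203 at -0.54, and the joint entry at -0.24. miR-1, miR-208b-3p, and miR-499 are known as miRNAs of striated muscle and had at least 14 counts in each animal. The counts of miR-1 were 49, 57, and 61 at 0 h and 59, 52, and 82 at 6 h. Totals after the authors' scaling were 132339 in 1_1 and 148785 in 3_1, against 91252, 96947, and 129747 at 6 h. The log2 CPM of miR-1 thus depended on these totals as well as on its counts. The part of background counts was not tested.

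miR-192, a hepatocyte miRNA, was among the 26 called lower without 2_1, at -0.86 (limma adjusted p = 0.0101), and had a log2 fold change of -0.56 (limma adjusted p = 0.154) with all animals.

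**Figure D3:**
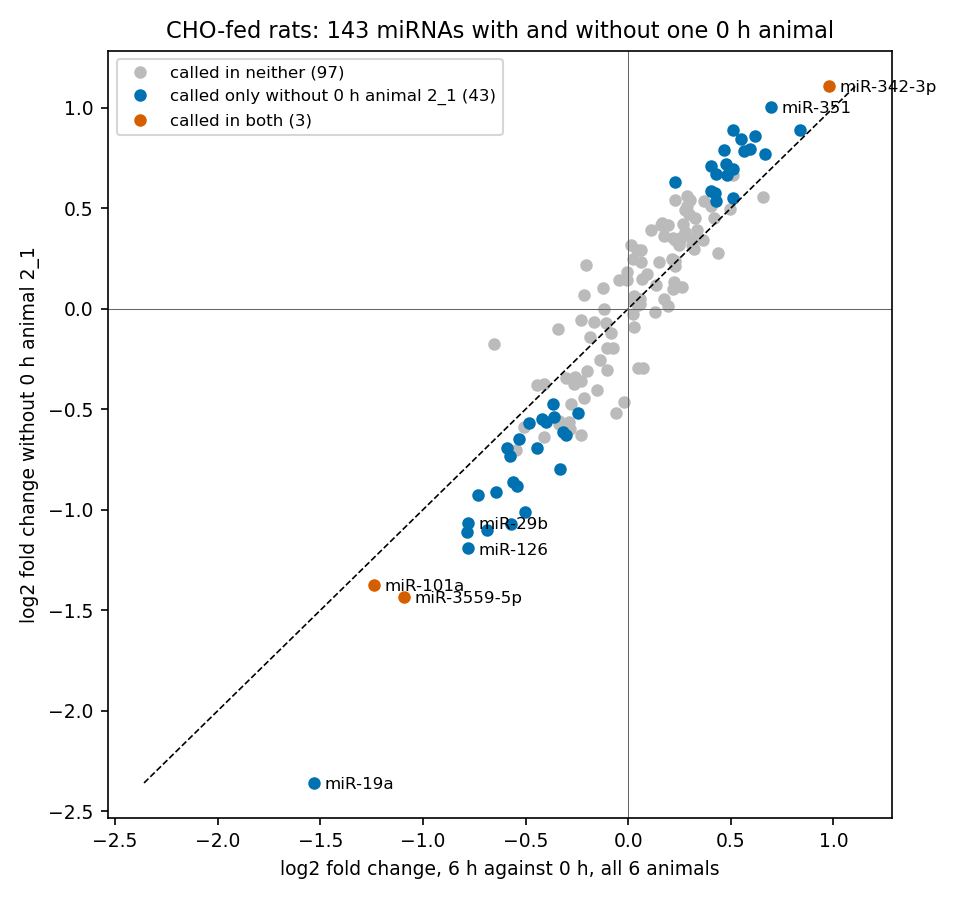
Log2 fold change of 143 miRNAs at 6 h against 0 h with all 6 animals (x axis) and without 0 h animal 2_1 (y axis), each point 1 miRNA, coloured by the limma call, with the dashed line marking equal values. Both axes share 5 animals, and miR-19a moves farthest among the labelled miRNAs, from -1.53 to -2.36.

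Of the 10 miRNAs with the highest counts, none was called with all animals, beside 2.10% of all miRNAs. miR-122 had 18.38, 19.06, and 18.67 log2 CPM at 0 h and 19.13, 19.00, and 19.19 at 6 h. With 2_1 inside the 6 h range, its log2 fold change was 0.41 (SE 0.18, limma adjusted p = 0.167), and 0.59 without 2_1 (limma adjusted p = 0.0245). miR-21, which rises in growing and injured liver and was the target of the inhibitor used in the study, had 14.66, 13.46, and 14.65 log2 CPM at 0 h against 13.66, 14.02, and 14.40 at 6 h. The groups overlapped, and the log2 fold change was -0.23 (95% confidence interval -0.84 to 0.37, limma adjusted p = 0.634). For 6 h against 72 h, with all animals from set 4, miR-21 had a log2 fold change of -1.21 (limma adjusted p = 0.00407). miR-125b-5p, which had 13.84, 14.52, and 13.99 log2 CPM at 0 h and 14.71, 14.38, and 15.04 at 6 h, had a log2 fold change of 0.59 (limma adjusted p = 0.173). The mesenchymal miRNA miR-145 was higher in every 6 h animal, with 13.99, 14.07, and 13.95 log2 CPM at 0 h against 14.40, 14.18, and 14.70 (log2 fold change 0.42, limma adjusted p = 0.172). miR-27b had a log2 fold change of -0.37. The others, miR-29a, let-7d, and miR-16, were between 0.06 and 0.22 and overlapped between groups.

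Grouped by seed, relatives did not always move alike. Both miRNAs with the seed ACAGUAC were lower. miR-101b, which lies in the gene Rcl1, had 11.76, 10.36, and 11.45 log2 CPM at 0 h and 10.23, 10.90, and 10.38 at 6 h, with a log2 fold change of -0.69 (limma adjusted p = 0.217, and 0.0245 without 2_1). The difference between the relatives, -1.24 against -0.69, was not tested. Both miRNAs with the seed GUGCAAA were lower too, at -1.53 for miR-19a and -0.50 for miR-19b. The other measured members of the miR-17/92 and paralogous clusters ran from -0.27 for miR-106b to 0.44 for miR-93, and miR-17-5p was at 0.20. Over the 7 members measured, 3 were higher and 4 lower, none was called (2.10% over all miRNAs), and the median log2 fold change was -0.24, beside 0.04 over all miRNAs.

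In the miR-29 family (seed AGCACCA), miR-29a overlapped between groups at 0.06 (95% confidence interval -0.26 to 0.38) while miR-29b was at -0.78 and miR-29c at -0.57. miR-29c had 12.95, 11.41, and 12.86 log2 CPM at 0 h and 11.53, 11.81, and 12.17 at 6 h. Animals 1_1 and 3_1 were above all 6 h animals and 2_1 was below them. Without 2_1, miR-29b and miR-29c were both called at -1.07, and miR-29a was at 0.05. miR-29a and miR-29b lie close together at chr4:60617968-60617989 and chr4:60618342-60618364, and miR-29b has a further copy beside miR-29c on chromosome 13. miR-29c and miR-19b were named after their values were seen, as were the family or cell marker members that are neither the lowest nor the highest of their list.

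All 8 members of the let-7 family measured share the seed GAGGUAG. Of these, 6 were higher and 2 lower, with a median log2 fold change of 0.14, beside 79 higher and 64 lower and a median of 0.04 over all 143. None was called, which with 2.10% called over all miRNAs says nothing particular about the family. let-7a was the highest at 0.51 and let-7f the lowest at -0.40, although they differ by 1 base. let-7f had 13.53, 13.02, and 13.48 log2 CPM at 0 h and 12.80, 12.86, and 13.17 at 6 h, with 2_1 inside the 6 h range. Without 2_1 both passed the threshold, let-7a at 0.55 (limma adjusted p = 0.0253) and let-7f at -0.56 (limma adjusted p = 0.0362). let-7a and let-7f have copies close together on chromosome 17, at chr17:16320145-16320166 and chr17:16320508-16320529, and each has a further copy elsewhere.

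The remaining families held no called miRNA with all animals, beside 2.10% over all miRNAs, and are given by their values. Of the 5 measured miRNAs of the miR-23, miR-27, and miR-24 clusters, 4 were lower and 1 higher, with a median log2 fold change of -0.26. They ran from -0.48 for miR-27a to 0.17 for miR-24, which turned negative with plain totals. In the miR-99/100 and miR-125 list, 3 of 5 were higher, from -0.57 for miR-99a to 0.59 for miR-125b-5p. miR-99a and miR-100 are related to miR-99b, yet miR-99a was lower, miR-100 was at -0.08 and miR-99b was higher. Of 5 measured miR-15/16 relatives, which hold back the cell cycle, 3 were higher and 2 lower (median 0.02), from miR-322 at -0.32 to miR-15b at 0.30. Of 6 miR-30 entries, 2 were higher and 4 lower (median -0.11), from miR-30b-5p at -0.30 to miR-30d at 0.26. Both miR-26 members were lower (-0.41 for miR-26b and -0.23 for miR-26a), and both miR-34 members, known as targets of p53, were higher (0.23 for miR-34a and 0.47 for miR-34c). miR-103 was at 0.25 and its relative miR-107 at 0.13. miR-148b-3p and miR-152, which share a seed, were at -0.01 and -0.10. miR-181a was at 0.33 and miR-181c at -0.20, and miR-130a was at 0.07 and miR-301a at -0.34. Of these, miR-107, miR-130a, miR-148b-3p, and miR-181c changed sign without 2_1. miR-221 was at 0.23, and of the Dlk1-Dio3 cluster miR-539 was at 0.23 and miR-409-3p at 0.50. Of the 5 inflammation-linked miRNAs measured, 2 were higher and 3 lower, from -0.23 for miR-21 to 0.84 for miR-132.

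Markers of the other cells of whole liver did not move as 1 block. Of the hepatocyte miRNAs, miR-122 was at 0.41, miR-194 at -0.15 and miR-192 at -0.56. The red blood cell miRNAs miR-451 (0.04) and miR-144 (-0.02) were near 0, with overlap between groups, and their sign changed with the scaling. Of the leukocyte miRNAs, miR-342-3p rose, while miR-150 was at 0.37, miR-223 at -0.04, and miR-142-3p at -0.29, all with overlap between the groups. The part of leukocytes in the rise of miR-342-3p was not tested. The stromal miRNAs miR-145 (0.42), miR-199a-5p (0.03), miR-143 (-0.29), and miR-199a-3p (-0.51) went both ways, and the biliary miRNAs miR-429 and miR-200b were at -0.34 and -0.44. All of these markers had at least 14 counts in each of the 6 animals.

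For stellate cells, the liver cells that make scar matrix on activation, lists taken from the study's text hold miRNAs that go up or down when such cells are activated in culture. Of the 14 measured that go up in culture, 10 were higher and 4 lower at 6 h, with a median log2 fold change of 0.27. They ran from -0.42 for miR-22 to 0.84 for miR-132 and included miR-31 and miR-145. Of the 21 that go down, 9 were higher and 12 lower, with a median of -0.15, from -0.79 for miR-335 to 0.66 for miR-207. None in either list was called, beside 2.10% over all miRNAs. Without 2_1 the medians were 0.27 and -0.29, beside 0.07 over all miRNAs. Of the 14 that go up in culture, 4 were then called higher and 1 lower, and of the 21 that go down, 1 higher and 6 lower, beside 20 higher and 26 lower of all 143 (32.2%).

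At the later times miR-3559-5p, miR-19a, and miR-29b had mean levels above the 0 h mean with 2_1 included, by 0.03 to 0.96 on the log2 scale. miR-101a stayed between its 0 h and 6 h levels. Animal 2_1 lowered that 0 h mean. Its difference from the mean of the other 0 h animals was -2.48 for miR-19a, -1.03 for miR-3559-5p, and -0.86 for miR-29b. The values at 24 h and 72 h are not given without 2_1, so a level above 0 h may rest on that library. The contrasts with 0 h share their 0 h animals, so the values are only set side by side. miR-3559-5p was at 0.33 at 24 h and 0.13 at 72 h against 0 h, miR-19a at 0.96 and 0.85, and miR-29b at 0.09 and 0.03. miR-101a was at -0.45 and -0.50. miR-342-3p was at 0.16 at 24 h and at 0.77 at 72 h (limma adjusted p = 0.0223 at 72 h). Its 0 h mean held the low animal 1_1, which differed from 3_1 by -1.15, and these values are not given without 1_1. The 24 h animals were of sets 1 to 3 and the 72 h animals of set 4, so that miR-342-3p was high at both times measured in set 4 and low at both times measured in the other sets. For its rise, set and time cannot be told apart.

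Within set 4, the 6 h animals could be compared with the CHO-fed animals at 72 h. Depth differed between these times, with total counts of 87009, 87256, and 134618 at 6 h and 200312, 171919, and 209221 at 72 h. From 52 to 65 miRNAs had under 50 counts in a 6 h animal, against 19 to 32 in a 72 h animal. The part of depth was not tested. limma called 44 miRNAs (30.8%), 23 higher and 21 lower at 6 h. miR-3559-5p (-1.22, limma adjusted p = 0.00230), miR-19a (-2.38, limma adjusted p = 0.00173), miR-374 (-0.84, limma adjusted p = 0.00173), and miR-29b (-0.81, limma adjusted p = 0.0190) were lower at 6 h than at 72 h in the same set. miR-101a was at -0.74 (limma adjusted p = 0.0554) and miR-342-3p at 0.21 (limma adjusted p = 0.542). miR-145 (0.99, limma adjusted p = 0.00171) and miR-125b-5p (0.91, limma adjusted p = 0.0190) were higher at 6 h than at 72 h. For 24 h against 6 h, 24 miRNAs were called (16.8%), 13 higher and 11 lower at 24 h. miR-3559-5p was higher at 24 h by 1.43 (limma adjusted p = 0.00142), miR-19a by 2.50 (limma adjusted p = 0.00142), and miR-342-3p had a log2 fold change of -0.82 (limma adjusted p = 0.0143).

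EtOH-fed rats at 6 h and 0 h gave a comparison with no animal in common, although from the same sets. limma called 16 miRNAs there (11.2%), 4 higher and 12 lower. The EtOH-fed 0 h animal of set 2, labelled 2_4, also lay near the 6 h animals for some miRNAs. For miR-126 it had 14.36 log2 CPM, against 15.22 and 15.50 in the other 0 h animals and 13.68 to 14.28 at 6 h. For miR-101a it lay nearer to the other 0 h animals, at 8.13 against 8.53 and 8.30, with 6.88 to 7.63 at 6 h. There the EtOH-fed groups did not overlap. EtOH-fed values without 2_4 are not given. miR-101a had a log2 fold change of -1.18 and miR-3559-5p of -1.10 in EtOH-fed rats (limma adjusted p = 0.0214 for both), beside -1.24 and -1.09 in CHO-fed rats. miR-342-3p was at 0.37 (limma adjusted p = 0.262) in EtOH-fed rats beside 0.98, a difference of -0.61 with an unadjusted p = 0.0692 in limma. miR-19a (-1.85), miR-126 (-1.01), and miR-29b (-0.84) were called in EtOH-fed rats with limma adjusted p of 0.0333, 0.0358, and 0.0363. Over all 143 miRNAs, 124 had the same sign in both diets, with Pearson's r of 0.82 and Spearman's rho of 0.80. This is a description across miRNAs, which are not independent replicates, and both contrasts set animals of set 4 against sets 1 to 3. All 16 miRNAs called in EtOH-fed rats had the same sign in CHO-fed rats. Of the 46 called in CHO-fed rats without 2_1 and the 16 called in EtOH-fed rats, 13 were on both lists, in the same direction, which is 28.3% of the first list and 81.2% of the second. The first list left out the 0 h animal of set 2 while the second kept 2_4, so the lists rest on unlike sets of samples.

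The test of the difference between diets called 0 of 143 miRNAs (0%) in limma, with 3 at an unadjusted p under 0.05. These were miR-144, miR-30c, and miR-324-5p, named because the count was small. miR-144 was at -0.02 in CHO-fed and -1.16 in EtOH-fed rats (limma adjusted p = 0.0503 for the latter), miR-30c at 0.05 and -0.71, and miR-324-5p at 0.06 and 0.76. The smallest adjusted p of this test in limma was 0.988. let-7a was at 0.51 in CHO-fed and 0.04 in EtOH-fed rats (difference -0.47, unadjusted p = 0.0504 in limma), and miR-210 at 0.48 and -0.06.

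**Figure D4:**
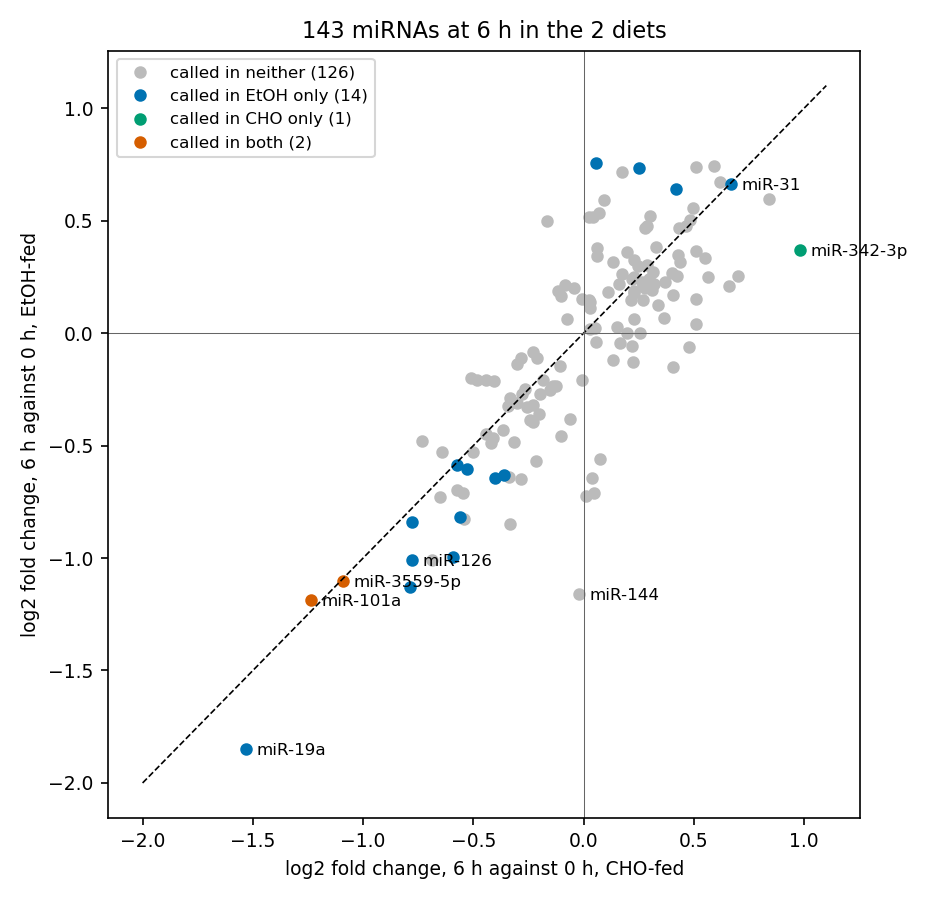
Log2 fold change at 6 h against 0 h in CHO-fed (x axis) and EtOH-fed rats (y axis), each point 1 of 143 miRNAs, coloured by limma call in each diet, with the dashed line marking equal values. miR-101a and miR-3559-5p lie near the line, miR-342-3p is the miRNA called in CHO-fed rats alone, and miR-144 lies at -1.16 in EtOH-fed and -0.02 in CHO-fed rats.

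The differences at 6 h went with the base composition of the mature miRNA, which ran from 27.3% to 68.2% G and C over the 118 miRNAs with a sequence. Of the 28 miRNAs under 40% G and C, 8 were higher and 20 lower at 6 h, with a median log2 fold change of -0.37. Of the 64 from 40% to 50%, 35 were higher and 29 lower, with a median of 0.03. Of the 26 over 50%, 23 were higher and 3 lower, with a median of 0.37. miR-19a, miR-101a, and miR-3559-5p have 34.8%, 33.3%, and 36.4% G and C, while miR-342-3p has 52.2%, miR-351 60.0%, and miR-210 and miR-99b 63.6% each.

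Across the 118 miRNAs, the share of G and C and the log2 fold change had Pearson's r of 0.50 and Spearman's rho of 0.50. These points share 6 libraries and are not independent replicates. With the 45 miRNAs that had a median of at least 100 counts, r was 0.34. Without 2_1, r at 6 h was 0.53. In EtOH-fed rats at 6 h r was 0.51, at 24 h and 72 h against 0 h in CHO-fed rats it was -0.09 and 0.04, and for 6 h against 72 h within set 4 it was 0.30. The 24 h and 72 h contrasts with 0 h keep 2_1 in their 0 h mean, and their r is not given without it. The difference between 2_1 and the other 0 h animals, all collected before surgery, had r of 0.45 with G and C. Its medians were -0.48 under 40%, 0.00 from 40% to 50%, and 0.46 over 50%. Between 1_1 and 3_1 r was -0.09. The part of base composition in the differences at 6 h was not tested.

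**Figure D5:**
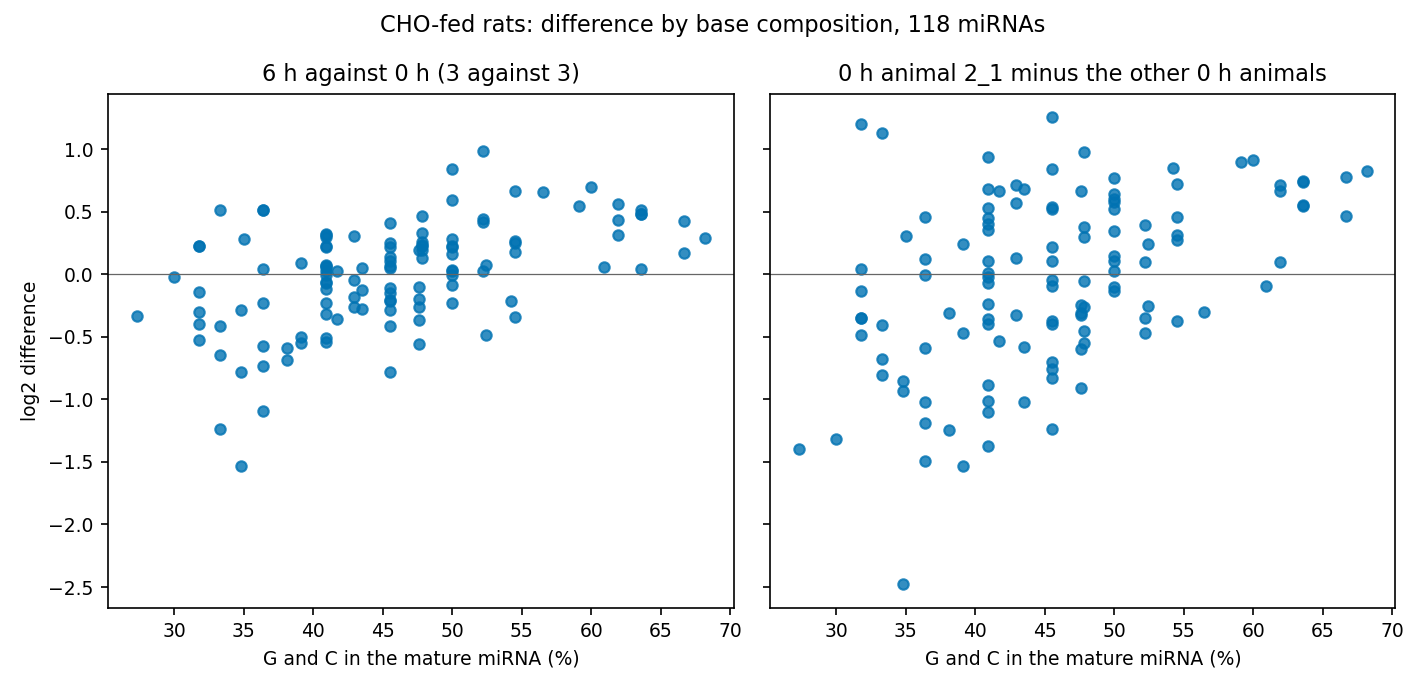
Log2 difference (y axis) against the share of G and C in the mature miRNA (x axis, percent), each point 1 of 118 miRNAs, for the 6 h animals minus the 0 h animals (left) and for 0 h animal 2_1 minus the mean of the other 0 h animals (right). The panels share the 0 h libraries, and in both the miRNAs over 50% G and C lie mostly above 0, with medians of 0.37 and 0.46.

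miRNAs of the same locus differed as well. On chromosome X, miR-450a (chrX:137720985-137721006), miR-351 (chrX:137725157-137725181), and miR-322 (chrX:137726198-137726219) lie on the minus strand within 5235 bases. miR-450a was at -0.73 and miR-322 at -0.32, with 36.4% and 40.9% G and C. miR-351, between them, was at 0.70 with 60.0%. Without 2_1 the values were -0.93, -0.61, and 1.00, and limma called all 3 (adjusted p = 0.0101 for miR-450a, 0.0323 for miR-322, and 0.0101 for miR-351). Without 1_1 in its place they were -0.65, -0.20, and 0.20, none of them called (limma adjusted p of 0.395, 0.765, and 0.711), so that the height of miR-351 rested largely on 1_1. The neighbours miR-145 and miR-143, which are made from 1 transcript in smooth muscle and fibroblasts, were at 0.42 and -0.29 with 52.2% and 45.5% G and C. The arms of the miR-199a hairpin were at 0.03 (miR-199a-5p) and -0.51 (miR-199a-3p).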

How the data were processed

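The deposited table held levels of 143 miRNAs in 48 rat livers, from a NanoString nCounter assay that the study ran against a longer list of rat miRNAs. The authors deposited log2 CPM, made from counts by TMM scaling (edgeR) and the voom transformation (limma). No filter on miRNAs is stated in the sources used here. Whole counts were recovered from the log2 values and the 0.5 count that voom adds. All lay within 0.001 of a whole number. Groups came from the sample labels. The deposited log2 CPM were tested with limma 3.58.1 in R 4.3.3 (lmFit and eBayes, 1 mean per group over the 24 untreated animals, Benjamini-Hochberg adjustment over 143 miRNAs, threshold 0.05). The procedure was tried on simulated data with independent noise for each miRNA and animal. That simulation held no divergent library and no set effect, so it does not cover those features of the data. The p-values rest on the spread between animals within the 8 untreated groups, which limma also borrows across the 143 miRNAs. Each group held 3 animals, whose separate rearing is not described. Named miRNAs were those called, the 10 with the smallest p in each direction, the 10 with the highest counts, the lowest and highest of each list, and miR-21 and miR-122. The members and lists were chosen with earlier results of these data known. Other scalings, added counts, a filter, weights, sample choices, and leaving out animals were tried. Figures were drawn with matplotlib 3.10.9.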

Additional observations from a re-analysis of the deposited data

How the results depend on the processing

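From 42 to 87 of the miRNAs had under 50 counts in an animal, which limits their precision, and 3 animals per group limit all tests. miR-101a, miR-3559-5p, and miR-342-3p stayed called with RLE factors, scaling on the 100 highest miRNAs or on totals without miR-122, 5 counts added, a filter of 50 counts in 3 animals, voom weights, and a trend in the spread. The number called in CHO-fed rats at 6 h, 3 in the report, was 7 with plain totals (1 higher and 6 lower), which moved the median log2 fold change of all miRNAs from 0.04 to -0.15, so that miR-107, miR-130a, miR-24, miR-29a, and miR-451 turned negative. It was 1 (miR-101a) with the 6 animals alone, 2 (miR-101a and miR-3559-5p) with the 4 untreated CHO groups alone, 25 with saline animals added (57 when 2_1 was also left out, an alternative chosen after seeing the data), and 20 once the log10 of the total was a covariate. The 0 h and 6 h animals shared no numbered set, so a block by set gave no pairing. With numbered set as a random replicate block the number called was 0 (20 at an unadjusted p under 0.05, limma). Without 1 animal at a time it ran from 0 (without 1_1, 4_1, 4_2, or 4_3, with 16 to 37 at an unadjusted p under 0.05) to 46 (without 2_1), with 1 without 3_1. The cause of these shifts was not tested. The difference between diets gave 0 calls under every alternative tried, with 0 to 10 miRNAs at an unadjusted p under 0.05.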
